A study of Rattus norvegicus with 16 samples.

Results

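Rats that had been injected were compared with rats that had not, over RNA from the frontal cortex. The 16 RNA-seq libraries held 8 injected and 8 uninjected samples, which are all samples of the series, and 14824 of 28168 assembled loci were tested. A locus was tested when its mean level over the 16 samples was at least 1 FPKM (a unit in which fragments are divided by transcript length and by the size of the library) and its status was OK in every sample. Each difference is the mean of the 2 injected group means minus the mean of the 2 uninjected group means, on the log2(FPKM + 0.5) scale, which understates the change of low loci.

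All samples came from male Sprague Dawley rats that were 11 weeks old when a diet of 7 weeks began. The uninjected groups were rats on chow (chow, 4 samples) and rats on a high fat diet (HF, 4 samples). The injected groups ate the same high fat diet and had 10 days of intraperitoneal injection, with PBS vehicle alone (HF_PBS, 4 samples) or with 5-aza-2′-deoxycytidine in PBS (HF_5AzaD, 4 samples). 5-aza-2′-deoxycytidine, or 5-AzaD, is a nucleoside analogue that traps DNA methyltransferases once it is built into DNA. No group received an injection on chow, so all 8 injected samples share the high fat diet while 4 of the 8 uninjected samples had chow. The labels state neither that each library is 1 rat nor when libraries were made. P-values therefore measure the spread between these samples, and injection, handling and any laboratory batch that follows the injections cannot be told apart.

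Repeated injection adds handling, restraint and a needle to an animal's day, and stress hormones released by such events act on the cortex through the glucocorticoid receptor. Cortical RNA is also a mixture of neurons, glia, vessels and meninges, and the amount of each in a dissected block shifts every bulk level. In bulk tissue fewer cells of a type and less RNA per cell cannot be told apart. Ribosomes make proteins, proteasomes degrade them and mitochondria supply the energy for both, while synapses depend on receptors, channels and scaffolds that neurons keep renewing.

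The libraries were alike in the number of loci above 0, from 23064 to 24333, and pairs of samples correlated at 0.862 to 0.984. Total counts are unknown. Relative depth read from the steps of low loci, with the sample chow 2 as 100%, was approximately 38.7 to 100% in chow, 30.1 to 38.6% in HF and 32.6 to 44.7% in the injected samples. Striatal markers stood high in HF 8, HF_PBS 2, HF_PBS 3 and HF_PBS 4, where the list's summed level was 1088 to 2002 FPKM against 401 to 692 FPKM in the other 12 samples. Without those 4 libraries, a choice made after seeing the data, 2506 loci were called in place of 6041. HF_PBS then rested on 1 sample, assumed to vary as the other groups do.

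Injected and uninjected samples differed at 6041 loci, 40.8% of those tested (limma, Benjamini-Hochberg adjusted p under 0.05). Levels were higher after injection at 2926 loci (19.7%) and lower at 3115 (21%). The median difference was 0.42 among the loci that rose and -0.50 among those that fell, against 0.02 over all loci. Few shifts were large: 197 loci rose at least 2-fold (1.33%) and 468 fell at least 2-fold (3.16%). All 8 injected samples lay above all 8 uninjected samples at 433 loci (2.92%) and below them at 749 loci (5.05%). The first principal component of the tested loci held 35.3% of the variance, and on it the uninjected samples lay between -54.5 and -15.4 and the injected samples between 7.95 and 60.7.

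**Figure D1:**
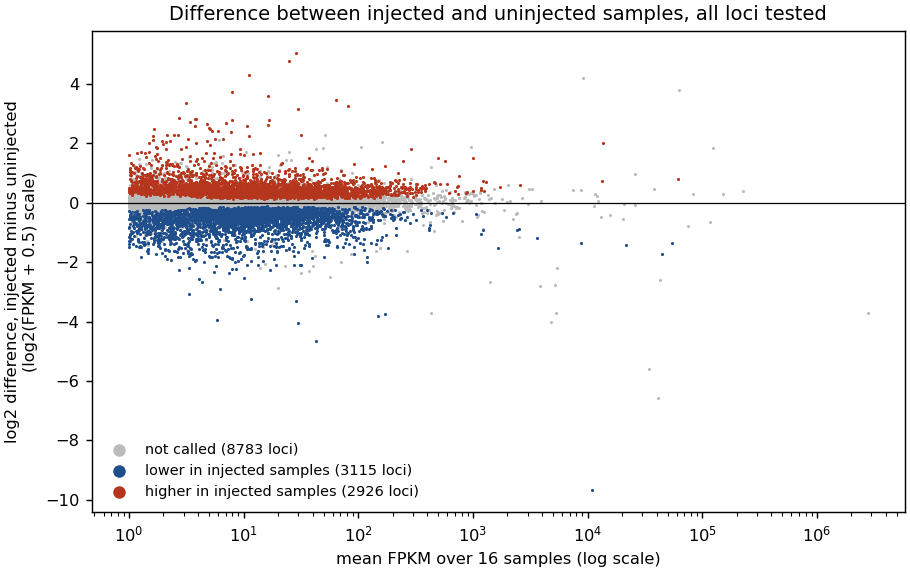
Log2 difference between injected and uninjected samples (y axis, log2(FPKM + 0.5) scale) against mean FPKM (x axis, log scale), 1 point a locus, red where higher and blue where lower in injected samples by limma. Called loci, 2926 above and 3115 below 0, run through the whole range of levels, and the few loci past 10000 FPKM have no gene symbol.

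Diet was shared by the 8 injected samples and the 4 HF samples, and against HF alone 1904 loci rose (12.8%) and 2146 fell (14.5%). Of the loci called in the full contrast, 1804 rose and 2085 fell in this contrast too, and 0 were called in the opposite direction. Both contrasts use the 8 injected and the 4 HF samples, so opposite calls were unlikely from the start. HF_PBS differed from HF at 3536 loci (23.9%) and from chow at 4173 (28.2%). HF_5AzaD differed from HF at 2112 loci (14.2%) and from chow at 2414 (16.3%). These counts rest on few libraries: without HF 6, HF_PBS and HF_5AzaD differed from HF at 1633 and 395 loci, without HF_PBS 4 HF_PBS differed from chow at 2013, and without HF_5AzaD 7 HF_5AzaD differed from chow at 399. Without HF 8, HF_PBS 3 and HF_PBS 4, HF_PBS differed from HF at 7 loci and from chow at 3. With all 16 samples, in all 4 of these pairs 425 loci rose and 644 fell, with the groups shared between pairs. Where pairs share no sample, HF_PBS against HF and HF_5AzaD against chow had 1506 calls in the same direction, 42.6% of the first and 62.4% of the second, and 1 in opposite directions. HF_PBS against chow and HF_5AzaD against HF had 1418 in the same direction, 34% and 67.1% of their calls, and 2 in opposite directions. Within the uninjected samples HF differed from chow at 0 loci by limma, with 1020 at an unadjusted p under 0.05. Within the injected samples HF_5AzaD differed from HF_PBS at 0 loci by limma, with 1100 at an unadjusted p under 0.05.

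FPKM values were used as deposited. When the values were rescaled so that all tested loci summed to the same total, the median difference moved to 0.74, the calls to 2505 and the share of higher loci among the calls from 48.4% to 95.8%. That total is carried by loci with no gene symbol that reach 8152520 FPKM in a sample. With loci above 10000 FPKM left out of the total, 5809 loci were called and the median was 0.01. Directions below are for the deposited scale, and 27 of the 131 named genes that were called changed sign under the first rescaling, and all 27 were falls. Of 10216 gene symbols with 1 locus chosen each, 2082 rose (20.4%) and 1985 fell (19.4%), with a median of 0.03, and the gene groups are read against these shares.

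The sequences just before the starts of 4 genes are shown because these genes are the 2 most abundant of each direction with non-overlapping samples and a RefSeq promoter entry. Tmsb4x encodes thymosin beta 4, which binds actin monomers, and Naca encodes a subunit of the complex that meets nascent chains at the ribosome; both rose. Eef2 encodes the factor that moves the ribosome along the message, and Ppp1r9b encodes spinophilin, a scaffold of dendritic spines; both fell. Each sequence gives the 100 bases before the start in RefSeq's GRCr8 annotation, 5′ to 3′ on the gene's strand, with CG pairs in capitals.
Tmsb4x, chrX:30761511-30761610 (plus strand): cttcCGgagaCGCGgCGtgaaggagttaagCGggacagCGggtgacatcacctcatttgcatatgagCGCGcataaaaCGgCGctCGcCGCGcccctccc
Naca, chr7:1054219-1054318 (plus strand): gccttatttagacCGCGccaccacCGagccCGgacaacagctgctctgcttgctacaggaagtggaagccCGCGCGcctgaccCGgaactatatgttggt
Eef2, chr7:9189239-9189338 (minus strand): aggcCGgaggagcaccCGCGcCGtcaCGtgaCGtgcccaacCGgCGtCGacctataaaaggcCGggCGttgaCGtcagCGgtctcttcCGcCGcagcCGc
Ppp1r9b, chr10:80434800-80434899 (plus strand): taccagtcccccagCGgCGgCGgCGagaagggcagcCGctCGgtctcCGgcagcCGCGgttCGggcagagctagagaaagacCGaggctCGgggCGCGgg
CG pairs, the sites that DNA methyltransferases act on, numbered 13 and 8 in the sequences of Tmsb4x and Naca and 16 and 14 in those of Eef2 and Ppp1r9b. RefSeq promoters were found for 8240 of the 10216 symbols (80.7%). In the 250 bases before the start, GC content had a median of 58.8% in 1721 genes that rose, 63.2% in 1591 that fell and 60.8% in 4928 that were not called. The median number of CG pairs was 16, 19 and 16 in the same order. At least 10 pairs were present in 79.1% of the promoters of genes that rose, 80.0% of those that fell and 77.3% of all. The quartiles of GC content overlapped, at 53.2 to 64.8% for genes that rose and 55.6 to 70.0% for those that fell, and no test was made.

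Messages for the ribosome were higher after injection. Of 65 cytosolic ribosomal protein genes tested, 46 rose and 1 fell, with a median log2 difference of 0.53, and 18 lay higher in all injected than in all uninjected samples, which holds for 2.97% of all symbols (4.07% lay lower). The list score, each sample's mean deviation from the gene means in log2 units, was -0.43 to -0.09 in uninjected and -0.02 to 0.63 in injected samples, without overlap. Rps24, a protein of the small subunit, stood at 88.8 to 173 FPKM in the uninjected samples (median 139) and 259 to 518 FPKM in the injected samples (median 306). Its samples did not overlap, with a log2 difference of 1.39 (SE 0.18, limma adjusted p = 0.000215). Rpl10a of the large subunit ran at 5.14 to 8.82 FPKM in the uninjected samples (median 6.40) and 12.9 to 24 FPKM in the injected samples (median 15.8), again with no overlap and a log2 difference of 1.28 (SE 0.14, limma adjusted p = 0.000131). Rpl6, Rps15a and Rps29 rose by 1.0, 1.15 and 1.42 on the log2 scale, and each separated the 8 injected from the 8 uninjected samples. Rps29 was widest among the injected samples, reaching 190.5 FPKM in HF_5AzaD 7. Rps21, the 1 member that fell, had a log2 difference of -0.25 (SE 0.09, limma adjusted p = 0.0309), and its groups overlapped. With the 4 libraries high in striatal markers left out 26 members rose (40%), where 7.71% of all symbols rose and 7.96% fell. With the score of hypothalamus and basal forebrain markers as a covariate 30 rose (46.2%), where 12.3% of all symbols rose and 11.3% fell. Ribosomal protein genes, Gapdh and other housekeeping genes have processed copies across the genome, so the level at each of these loci is uncertain.

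Translation factors rose less often than ribosomal proteins. Of 59 tested, 20 rose (33.9%, against 20.4% of all symbols) and 13 fell (22%, against 19.4%), with a median of 0.10. With the hypothalamus covariate 18 rose (30.5%, against 12.3%) and 7 fell (11.9%, against 11.3%). Against HF alone 17 rose (28.8%, against 13.4%) and 7 fell (11.9%, against 12.6%). The translation factors named here all fell. Eef2 ran at 387 to 493 FPKM in the uninjected samples (median 424) and 341 to 381 FPKM in the injected samples (median 363). Every injected sample lay below every uninjected one, with a log2 difference of -0.25 (SE 0.06, limma adjusted p = 0.00559). Eif4enif1, which carries the cap-binding factor into the nucleus, fell by 0.67 on the log2 scale, and Eif4e2, a cap-binding protein, fell by 0.40. Naca rose, at 177 to 240.2 FPKM in the uninjected samples (median 213) and 257 to 379 FPKM in the injected samples (median 282), and its groups did not overlap.

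Mitochondrial ribosomal proteins had 38 of 62 members higher and 2 lower, a median of 0.31, and scores of -0.27 to -0.04 in uninjected and -0.03 to 0.30 in injected samples. Mrpl41 of this group ran at 27.7 to 38.8 FPKM in the uninjected samples (median 32.8) and 43.2 to 61.5 FPKM in the injected samples (median 50.7), without overlap, and its log2 difference was 0.66 (SE 0.06, limma adjusted p = 6.02e-05). Mrpl32 rose by 0.50. Subunits of the respiratory chain and ATP synthase had 37 of 74 members higher and 2 lower, with a median of 0.32, and here the scores overlapped, since 4 of 8 injected samples lay above all uninjected ones. Cox6c, a subunit of cytochrome c oxidase, ran at 288 to 436 FPKM in the uninjected samples (median 356) and 442 to 718 FPKM in the injected samples (median 566), with a log2 difference of 0.66 (SE 0.13, limma adjusted p = 0.00177). The complex I subunits Ndufa11, Ndufv2 and Ndufa6 rose by 0.63, 0.51 and 0.57, and none of the 3 overlapped between groups. The 2 members that fell were Sdha, the flavoprotein of succinate dehydrogenase, at -0.39, and Ndufs1, the large iron-sulphur subunit of complex I, at -0.35.

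Proteasome subunits had 19 of 41 members higher and 1 lower, with a median of 0.26. Psmb6, a catalytic beta subunit, ran at 3.52 to 4.79 FPKM in the uninjected samples (median 4.30) and 6.30 to 12.7 FPKM in the injected samples (median 9.52), without overlap and with a log2 difference of 1.06 (SE 0.12, limma adjusted p = 0.000131). Psmd1 and Psma4 rose by 0.57 and 0.50, and Psmd2, a large subunit of the regulatory particle, fell by 0.34. LSm and Sm proteins, many of which form the core of spliceosomal particles, had 9 of 16 higher and 1 lower. Lsm3 rose by 0.63, and Lsm12, which shares the name but is not a known part of that core, by 0.35. Chaperonin and prefoldin subunits, which fold actin and tubulin, had 7 of 12 higher and 0 lower, including Cct7 at 0.44 and Pfdn5 at 0.55. Vacuolar ATPase subunits were divided, with 4 of 18 higher and 4 lower, and Atp6v0e2, among the most abundant genes that fell, was at 171 to 209 FPKM in the uninjected samples (median 187) and 107 to 169 FPKM in the injected samples (median 138).

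**Figure D2:**
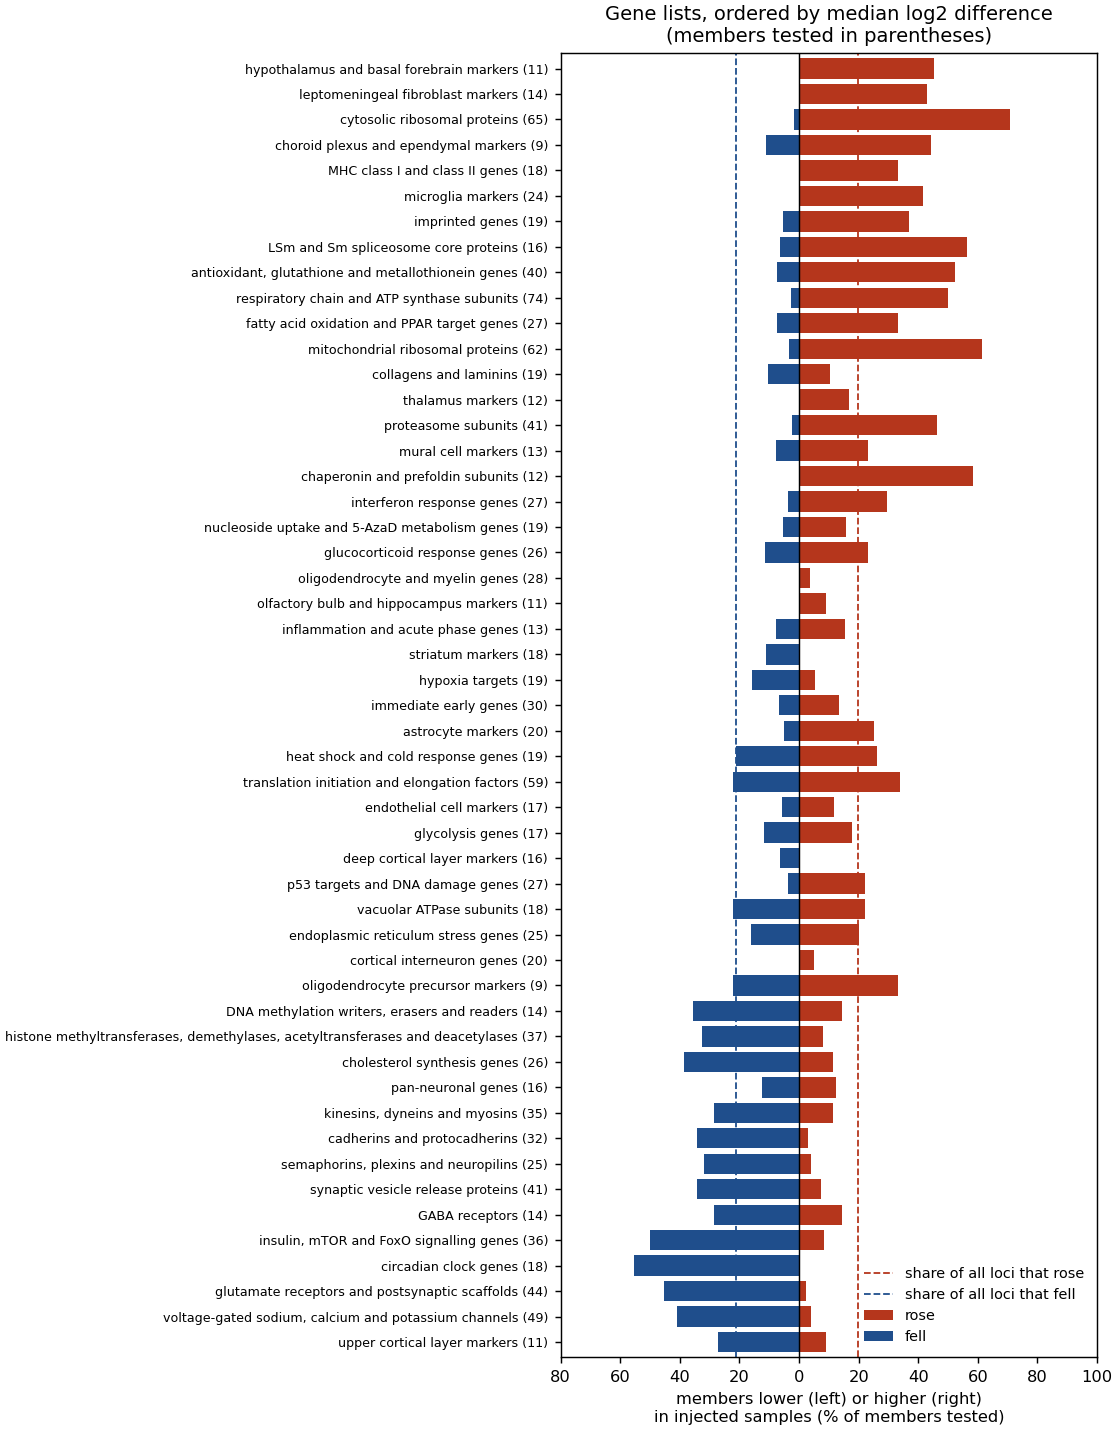
Share of each list's tested members that were lower (blue, left) or higher (red, right) in injected samples by limma, with lists ordered by median log2 difference and the share over all loci as dashed lines (19.7% higher, 21% lower). Ribosomal, respiratory and proteasome lists lie to the right, and channels, glutamate receptors, clock and insulin signalling lists to the left.

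Among all single-symbol loci that rose and did not overlap, the 12 with the largest difference included 4 ribosomal proteins. The locus named Ganab, the catalytic subunit of the glucosidase that trims new glycoproteins, was listed at 0 in 5 uninjected samples. It was at 0.0889, 0.123 and 0.513 FPKM in the other 3, and at 2.29 to 13.7 FPKM in the injected samples (median 4.52). How fragments were assigned to this locus was not tested, so values at 0 are not read as absence of the gene's RNA. Gstm1, a glutathione transferase, ran at 36.5 to 78.5 FPKM in the uninjected samples (median 49.8) and 80.2 to 223 FPKM in the injected samples (median 132), with a log2 difference of 1.31 (SE 0.21, limma adjusted p = 0.000509). Il18, a cytokine of the interleukin 1 family, was low throughout, at 0.695 to 1.42 FPKM in the uninjected samples (median 1.12) and 1.56 to 6.03 FPKM in the injected samples (median 3.67). Its groups did not overlap, with a log2 difference of 1.31 (SE 0.22, limma adjusted p = 0.000669). Genes of RNA processing were also among the 12: Clk1, a kinase of splicing factors, rose by 1.11, and Hnrnph3, a splicing regulator, by 1.18. Ppip5k1, a kinase that makes inositol pyrophosphates, rose by 1.12, Sdccag1, which acts on stalled ribosomes, by 1.13, and RGD1565033 by 1.21. The most abundant gene to separate the groups upward was Tmsb4x, at 704 to 1030.2 FPKM in the uninjected samples (median 968) and 1212 to 2227 FPKM in the injected samples (median 1443), with a log2 difference of 0.71 (SE 0.12, limma adjusted p = 0.000774). Skp1, an adaptor of ubiquitin ligases, and Dynlrb1, a dynein light chain, rose by 0.40 and 0.46.

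**Figure D3:**
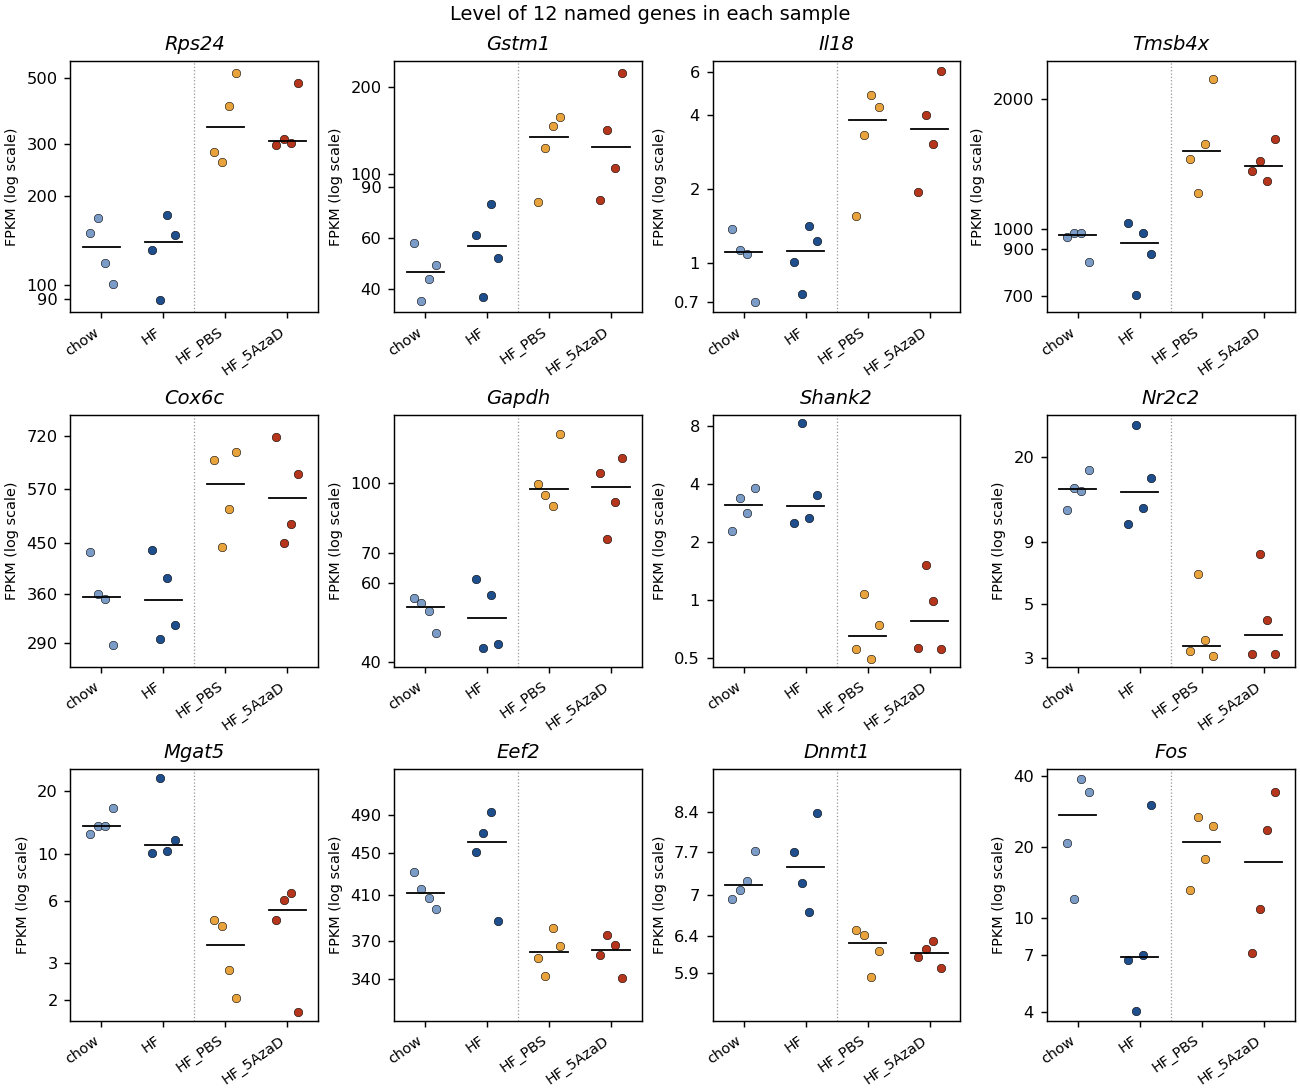
Level of 12 named genes in each sample (y axis, FPKM, log scale), by group, with the median as a line and a dotted line between uninjected and injected groups. For the first 11 genes no injected sample overlaps the uninjected ones, while Fos overlaps across all 4 groups.

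Of 44 glutamate receptor and postsynaptic scaffold genes, 20 fell and 1 rose, with a median of -0.36. The list score was 0.07 to 0.54 in uninjected and -0.53 to -0.02 in injected samples, without overlap. Shank2, a scaffold of the postsynaptic density, ran at 2.27 to 8.32 FPKM in the uninjected samples (median 3.12) and 0.495 to 1.53 FPKM in the injected samples (median 0.652). Its log2 difference was -1.61 (SE 0.22, limma adjusted p = 0.000273). Shank1 ran at 74.9 to 178 FPKM in the uninjected samples (median 103) and 35.9 to 70.8 FPKM in the injected samples (median 50.5) and its log2 difference was -1.01 (SE 0.17, limma adjusted p = 0.000626), and Shank3 fell by 0.87. All 3 scaffolds separated the groups. Ppp1r9b, at 237 to 331 FPKM in the uninjected samples (median 277) and 159 to 235 FPKM in the injected samples (median 196), fell by 0.50. Grin2d, an NMDA receptor subunit, was the 1 member that rose, by 0.58, with overlap and its highest value in HF_PBS 3. In place of 45.5% of members against 19.4% of all symbols, the hypothalamus covariate left 8 members lower (18.2% against 11.3%), and leaving out the 4 striatal libraries left 7 (15.9% against 7.96%).

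Of 49 voltage-gated channel genes, 20 fell, 2 rose and 27 did not pass the test, with a median of -0.38, and scores were 0.04 to 0.48 in uninjected and -0.52 to 0.03 in injected samples. Kcnh7, a potassium channel of the ERG family, ran at 4.23 to 21.5 FPKM in the uninjected samples (median 9.09) and 0.720 to 3.54 FPKM in the injected samples (median 1.66). The groups did not overlap and its log2 difference was -2.14 (SE 0.33, limma adjusted p = 0.000444). Scn1a, the sodium channel of fast-spiking interneurons, had a log2 difference of -2.22 (SE 0.37, limma adjusted p = 0.000654) with overlap, and the calcium channel Cacna1i and potassium channel Kcnh1 fell by 1.05 and 1.29. Of 41 vesicle release genes, 14 fell, 3 rose and 24 did not pass. Unc13a, which primes vesicles, ran at 37.6 to 76.9 FPKM in the uninjected samples (median 43.6) and 13.6 to 32.6 FPKM in the injected samples (median 23.6), without overlap, and its log2 difference was -1.05 (SE 0.16, limma adjusted p = 0.000373). Amph, an endocytic protein, fell by 1.04, Syt11, a synaptotagmin, by 0.49 and Rims4, a protein of the active zone, by 1.49. GABA receptor genes had 4 of 14 lower and 2 higher, and Gabra4 fell by 0.86, with overlap. The hypothalamus covariate left 7 channel genes lower (14.3%) and 5 vesicle release genes (12.2%), against 11.3% of all symbols. Without the 4 striatal libraries 7 channel genes (14.3%) and 4 vesicle release genes (9.76%) were lower, against 7.96%, so the share of vesicle release genes that fell was near the background in both settings.

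Semaphorins, plexins and neuropilins had 8 of 25 lower and 1 higher, including Plxna2 at -0.65 and Sema3a at -0.77. Cadherins and protocadherins had 11 of 32 lower and 1 higher, including Fat3 at -1.01 and Pcdhga9 at -0.62. With the hypothalamus covariate 1 gene of the first list (4%) and 4 of the second (12.5%) were lower, against 11.3% of all symbols, and without the 4 striatal libraries 0 and 3 (9.38%), against 7.96%. Kinesins, dyneins and myosins had 10 of 35 lower and 4 higher, with Kif3b, a motor of kinesin 2, at -0.60. Pan-neuronal genes had 2 of 16 higher and 2 lower with a median of -0.11, and the RNA-binding protein Elavl3 was the lower one with non-overlapping groups, at -0.23.

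Of the 12 largest non-overlapping falls, Kcnh7, Shank2 and Rims4 are described above and the others follow. The locus named Exoc8, a subunit of the exocyst that tethers secretory vesicles, was listed at 0 in 6 injected samples. It was at 2.39 and 2.06 FPKM in HF_PBS 1 and HF_5AzaD 3, against 4.33 to 10.8 FPKM in the uninjected samples. As for Ganab, values at 0 are not read as absence of the gene's RNA. Gfod1 ran at 20.4 to 55.7 FPKM in the uninjected samples (median 27.2) and 3.26 to 11.6 FPKM in the injected samples (median 7.39), with a log2 difference of -2.09 (SE 0.26, limma adjusted p = 0.000178). Nr2c2, the orphan nuclear receptor TR4, ran at 10.6 to 27 FPKM in the uninjected samples (median 14.7) and 3.04 to 7.98 FPKM in the injected samples (median 3.37), and its log2 difference was -1.77 (SE 0.22, limma adjusted p = 0.000191). Injected samples were below all uninjected ones for each of these genes. Mgat5, which branches N-glycans, fell by 1.70, and Dbf4, the activator of the Cdc7 kinase, by 1.83. Clstn2, a calsyntenin, Tmem132d, Tmem151b and LOC317456 fell by 1.51, 1.56, 1.48 and 1.55. Among abundant genes, Ppp2r2c, a regulatory subunit of protein phosphatase 2A, ran at 184 to 313 FPKM in the uninjected samples (median 232) and 76.3 to 140.2 FPKM in the injected samples (median 126), and Fbxl16, an F-box protein, fell by 0.85.

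**Figure D4:**
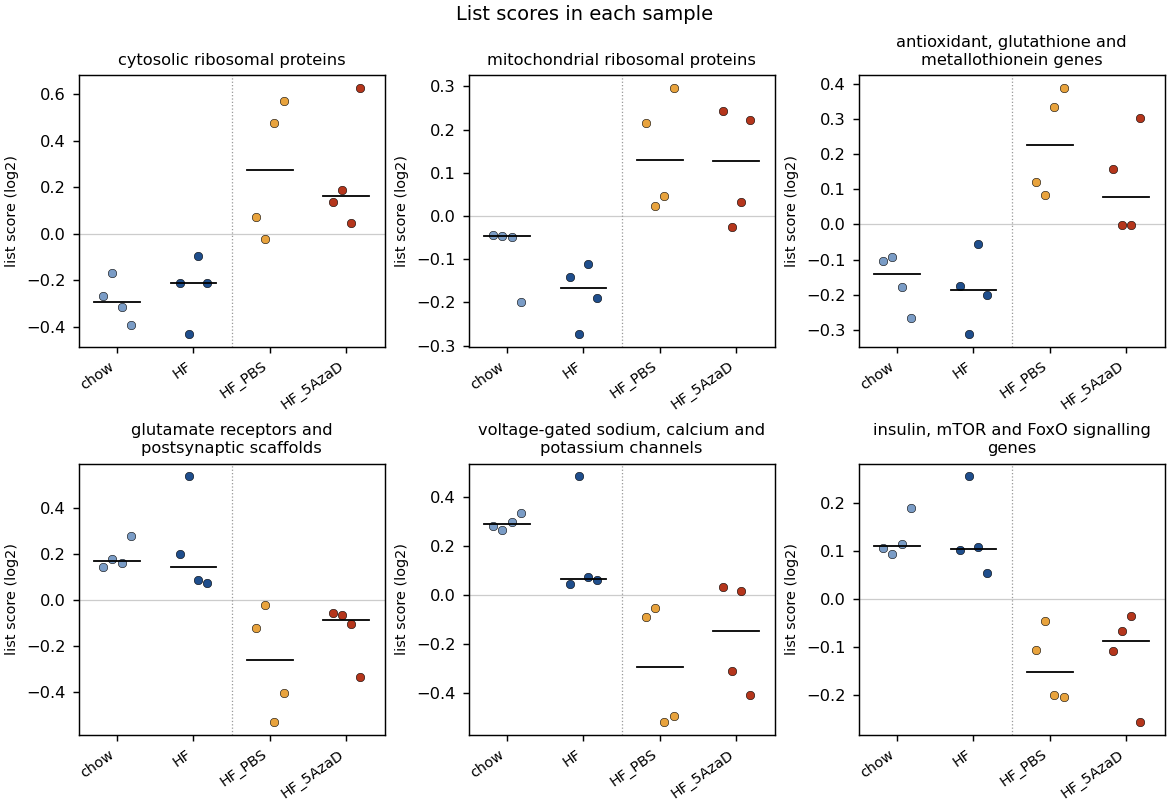
List scores in each sample (y axis, mean log2 deviation of the tested members from their means over 16 samples), by group, with medians as lines. For all 6 lists the 8 injected samples lie on 1 side of the 8 uninjected samples, and HF 6 is highest for the glutamate, channel and insulin lists.

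Of 36 insulin and mTOR signalling genes tested, 18 fell, 3 rose and 15 did not pass, the median was -0.32, and 10 members separated the groups downward. Foxo3, a transcription factor that insulin signalling keeps out of the nucleus, ran at 11.6 to 21.5 FPKM in the uninjected samples (median 16.3) and 5.05 to 10.8 FPKM in the injected samples (median 8.55), with a log2 difference of -0.95 (SE 0.17, limma adjusted p = 0.000929). Mlst8, a shared subunit of both mTOR complexes, ran at 14.6 to 16.8 FPKM in the uninjected samples (median 16.4) and 5.21 to 13.3 FPKM in the injected samples (median 10.4), and its log2 difference was -0.70 (SE 0.13, limma adjusted p = 0.000988). Tsc1, an inhibitor of mTOR complex 1, and Pdpk1, the kinase that activates Akt, fell by 0.51 and 0.60. Mtor itself rose by 0.41, with overlap. Members on both the activating and the inhibiting side of the pathway fell. With the hypothalamus covariate 14 members fell (38.9%, against 11.3% of all symbols), and without the 4 striatal libraries 9 fell (25% against 7.96%).

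Clock genes fell in 10 of 18 cases and rose in 0, with a median of -0.35. Clock, the partner of Bmal1, ran at 2.64 to 6.22 FPKM in the uninjected samples (median 3.57) and 0.813 to 2.24 FPKM in the injected samples (median 1.31), without overlap and with a log2 difference of -1.19 (SE 0.18, limma adjusted p = 0.000404). Cry2, a repressor of that pair, ran at 36.7 to 43.9 FPKM in the uninjected samples (median 39.4) and 22.7 to 34.5 FPKM in the injected samples (median 28), and its log2 difference was -0.53 (SE 0.08, limma adjusted p = 0.000371). Csnk1d, a kinase of the period proteins, fell by 0.33 and Tef, an output factor, by 0.45, the latter with 1 high injected sample, HF_5AzaD 5. With the hypothalamus covariate 5 clock genes fell (27.8%, against 11.3% of all symbols), and without the 4 striatal libraries 5 fell (against 7.96%). The labels used here give no time of day for tissue collection.

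Called chromatin genes were more often lower than higher. Histone methyltransferases, demethylases, acetyltransferases and deacetylases had 12 of 37 lower (32.4%, against 19.4% of all symbols) and 3 higher (8.11%, against 20.4%). Against HF alone 6 were lower (16.2%, against 12.6%) and 3 higher. With the hypothalamus covariate 10 were lower (27%, against 11.3%) and 2 higher. Kdm3a, a histone H3 demethylase, ran at 8.54 to 10.6 FPKM in the uninjected samples (median 9.88) and 13.2 to 18 FPKM in the injected samples (median 14.5) and its log2 difference was 0.56 (SE 0.07, limma adjusted p = 0.000147), whereas Hdac4, Nsd1 and Ehmt1 fell by 0.83, 0.72 and 0.61. Writers, erasers and readers of DNA methylation had 5 of 14 lower (35.7%, against 19.4%) and 2 higher (14.3%, against 20.4%). Their list median of 0.01 was the only one of 46 list medians whose sign relative to all loci changed with scaling. Dnmt1, the maintenance methyltransferase and a target of 5-AzaD, ran at 6.74 to 8.38 FPKM in the uninjected samples (median 7.21) and 5.85 to 6.49 FPKM in the injected samples (median 6.21). The groups did not overlap, with a log2 difference of -0.23 (SE 0.05, limma adjusted p = 0.00435). Dnmt3a, a de novo methyltransferase, fell by 0.26 (limma adjusted p = 0.00437) with overlap. Mbd1 and Zbtb38, proteins that bind methylated DNA, also fell, by 0.37 and 0.46, and Uhrf2 and Mbd2 rose, by 0.38 and 0.22. HF_PBS, which had no 5-AzaD, lay on the same side as HF_5AzaD for Dnmt1, where the difference from HF was -0.24 in HF_PBS and -0.26 in HF_5AzaD.

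Genes that answer to stress and activity were mixed. Of 26 glucocorticoid response genes, 6 rose and 3 fell, a share near the background. Mt1a, a metallothionein, ran at 2.70 to 4.39 FPKM in the uninjected samples (median 4.02) and 4.33 to 12 FPKM in the injected samples (median 8.44), with a log2 difference of 1.04 (SE 0.15, limma adjusted p = 0.000337) and slight overlap. Cebpd and Cebpb, transcription factors of acute responses, rose by 0.82 and 1.19, and Sult1a1, a sulfotransferase, by 0.94. Nr3c1, the glucocorticoid receptor, fell by 0.28. Nfkbia, an inhibitor of NF-kappa B, and Cdkn1a, a cell cycle inhibitor, rose by 0.64 and 0.42 (limma adjusted p = 0.0119 and 0.0479). Fkbp5, a co-chaperone of the receptor, did not pass the test at -0.31 (limma adjusted p = 0.0521), nor did Tsc22d3 at 0.11 (limma adjusted p = 0.393). Against HF alone, where 13.4% of all symbols rose and 12.6% fell, 7 of the 26 rose and 0 fell, with a median of 0.45. Against chow alone, where 15% rose and 16.2% fell, 3 rose and 3 fell, with a median of 0.0058, and the median of HF against chow was -0.31. Tsc22d3, a mediator of glucocorticoid action, rose by 0.41 against HF (limma adjusted p = 0.0242) and was at -0.19 against chow, where it did not pass (limma adjusted p = 0.243).

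Immediate early genes, which neurons switch on with activity, had 4 of 30 higher (13.3%) and 2 lower (6.67%). Among all symbols 20.4% rose and 19.4% fell. Fos ran at 4.05 to 38.7 FPKM in the uninjected samples (median 16.4) and 7.08 to 34 FPKM in the injected samples (median 20.6), and its log2 difference of 0.27 (SE 0.41, limma adjusted p = 0.613) did not pass. Arc, at 17.7 to 139 FPKM in the uninjected samples (median 58.9) and 25.7 to 145 FPKM in the injected samples (median 57.1), and the neurotrophin Bdnf did not pass either, with differences of 0.12 and 0.16. Jund rose by 0.48 without overlap and Klf2 by 0.99, while Fosl2 fell by 1.08 without overlap and Egr3 by 0.87. Heat shock and cold response genes had 5 of 19 higher (26.3%) and 4 lower (21.1%). Among them were the cold-inducible RNA-binding protein Rbm3 at 0.57 and the locus named Hspa8, a chaperone gene with many copies, at -1.18. The endoplasmic reticulum stress list had 5 of 25 higher (20%) and 4 lower (16%), shares near those of all symbols. The list of p53 targets had 6 of 27 higher (22.2%) and 1 lower (3.70%). The hypoxia list had 1 of 19 higher (5.26%) and 3 lower (15.8%).

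Antioxidant, glutathione and metallothionein genes were higher in 21 of 40 cases and lower in 3, with a median of 0.35 and list scores that did not overlap, and 11 were higher with the hypothalamus covariate (27.5%, against 12.3% of all symbols) and 8 without the 4 striatal libraries (20% against 7.71%). Prdx1, a peroxiredoxin, ran at 10.2 to 17.6 FPKM in the uninjected samples (median 14.2) and 21.7 to 46.1 FPKM in the injected samples (median 28.5), without overlap and with a log2 difference of 1.05 (SE 0.17, limma adjusted p = 0.000446), and Gstk1, a mitochondrial glutathione transferase, rose by 0.46. Fatty acid oxidation and PPAR target genes had 9 of 27 higher (33.3%, against 20.4% of all symbols) and 2 lower. Cpt1c, a neuronal carnitine palmitoyltransferase, was at 0.56 and Decr1, a mitochondrial reductase, at 0.47. With the hypothalamus covariate 4 of this list rose (14.8%, against 12.3%), a share near the background. Against HF alone 6 rose (22.2%, against 13.4%). Cholesterol synthesis genes had 10 of 26 lower and 3 higher, including the sterol carrier Stard4 at -0.86. Glycolysis genes had 3 of 17 higher and 2 lower.

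Gapdh and Actb, often used as reference genes, both rose. Gapdh, a glycolytic enzyme, ran at 43 to 61.1 FPKM in the uninjected samples (median 53.1) and 75.3 to 129 FPKM in the injected samples (median 97.1), without overlap and with a log2 difference of 0.94 (SE 0.11, limma adjusted p = 0.000131). Actb, the cytoplasmic actin, ran at 707 to 896 FPKM in the uninjected samples (median 760.2) and 804 to 1163 FPKM in the injected samples (median 986), with overlap and a log2 difference of 0.32 (SE 0.08, limma adjusted p = 0.00682). Imprinted genes had 7 of 19 higher (36.8%, against 20.4% of all symbols) and 1 lower, with Gnas, the stimulatory G protein, at 0.68 and Sgce, a sarcoglycan, at 0.34. Against HF alone 2 imprinted genes rose (10.5%, against 13.4%), and against chow alone 6 rose (31.6%, against 15%). With the hypothalamus covariate 2 rose (10.5%, against 12.3%), so the excess of calls was absent in that setting and against HF alone. The median of the imprinted list was 0.37 in the full contrast, 0.33 against HF alone and 0.01 with the covariate. Among nucleoside uptake and 5-AzaD metabolism genes 3 of 19 rose and 1 fell: Dck, the kinase that activates 5-AzaD, ran at 16.8 to 52.4 FPKM in the uninjected samples (median 31.3) and 6.68 to 33.5 FPKM in the injected samples (median 14.9), with a log2 difference of -0.96 (SE 0.31, limma adjusted p = 0.0224), and Nme2 and Dctd rose by 0.43 and 0.58. Against HF alone Dck was at -0.69 and did not pass (limma adjusted p = 0.183).

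MHC class I and class II genes had 6 of 18 higher and 0 lower. Cd74, the invariant chain of class II molecules, ran at 2.56 to 8.85 FPKM in the uninjected samples (median 5.35) and 5.71 to 50.4 FPKM in the injected samples (median 19.3), with overlap and a log2 difference of 1.67 (SE 0.39, limma adjusted p = 0.00432). The class II genes RT1-Ba and RT1-Db1 rose by 1.43 and 1.18. Interferon response genes had 8 of 27 higher and 1 lower, and inflammation and acute phase genes 2 of 13 higher (15.4%) and 1 lower. Microglia markers had 10 of 24 higher and 0 lower with a median of 0.39. Against HF alone 2 of the 24 microglia markers rose (8.33%) and 1 fell, 2 of the 27 interferon genes rose (7.41%) and 1 fell, and 4 of the 18 MHC genes rose (22.2%). Aif1, a microglial calcium-binding protein, ran at 14.9 to 31 FPKM in the uninjected samples (median 21.3) and 19.9 to 57.3 FPKM in the injected samples (median 37.3), with overlap and a log2 difference of 0.79 (SE 0.19, limma adjusted p = 0.00508). Fcer1g, an adaptor of immune receptors, and C1qb, a complement component, rose by 0.87 and 0.62. With the hypothalamus covariate, 0 MHC, 0 interferon and 1 microglial gene rose, and without the 4 striatal libraries 0 rose in each of the 3 lists.

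Leptomeningeal fibroblast markers had 6 of 14 higher and 0 lower with a median of 0.72, and their summed level was 312 to 1486 FPKM in uninjected and 606 to 4034 FPKM in injected samples. Against chow alone 0 of these markers rose, where 15% of all symbols rose. Against HF alone 3 rose (21.4%, against 13.4%). Ptgds, the prostaglandin D synthase of the meninges, ran at 158 to 1243 FPKM in the uninjected samples (median 467) and 435 to 3468 FPKM in the injected samples (median 1048), and Mgp and Slc6a13 rose by 0.96 and 0.86. Markers of the hypothalamus and basal forebrain, regions outside the frontal cortex, had 5 of 11 higher and 0 lower with a median of 1.15. Their summed level was 25.7 to 131 FPKM in uninjected and 33.7 to 738 FPKM in injected samples, and against HF alone 1 rose. Oxt, the oxytocin precursor, was at 403 and 46.6 FPKM in HF_PBS 3 and HF_PBS 4, at 0 to 10.9 FPKM in the other 6 injected samples and at 0.0819 to 1.99 FPKM in the uninjected samples. Chat, the enzyme of acetylcholine synthesis, which some cortical interneurons also make, was steadier, at 7.81 to 10.2 FPKM in the uninjected samples (median 8.47) and 10.5 to 12.4 FPKM in the injected samples (median 11.4), and its groups did not overlap. Gal and Pmch, neuropeptide precursors, rose by 1.41 and 1.15 with overlap.

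With the hypothalamus score as a covariate 3660 loci were called, 1720 higher and 1940 lower, and with the leptomeningeal score 4374 were called. Both covariates were chosen after seeing the data. The hypothalamus score itself had a median of -0.87 in uninjected and 0.75 in injected samples. As a covariate it therefore takes up part of the contrast. Of the 131 named genes called in the full contrast, 103 were still called with the first and 119 with the second, and 0 changed direction. With the hypothalamus score 0 of 14 leptomeningeal markers rose.

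**Figure D5:**
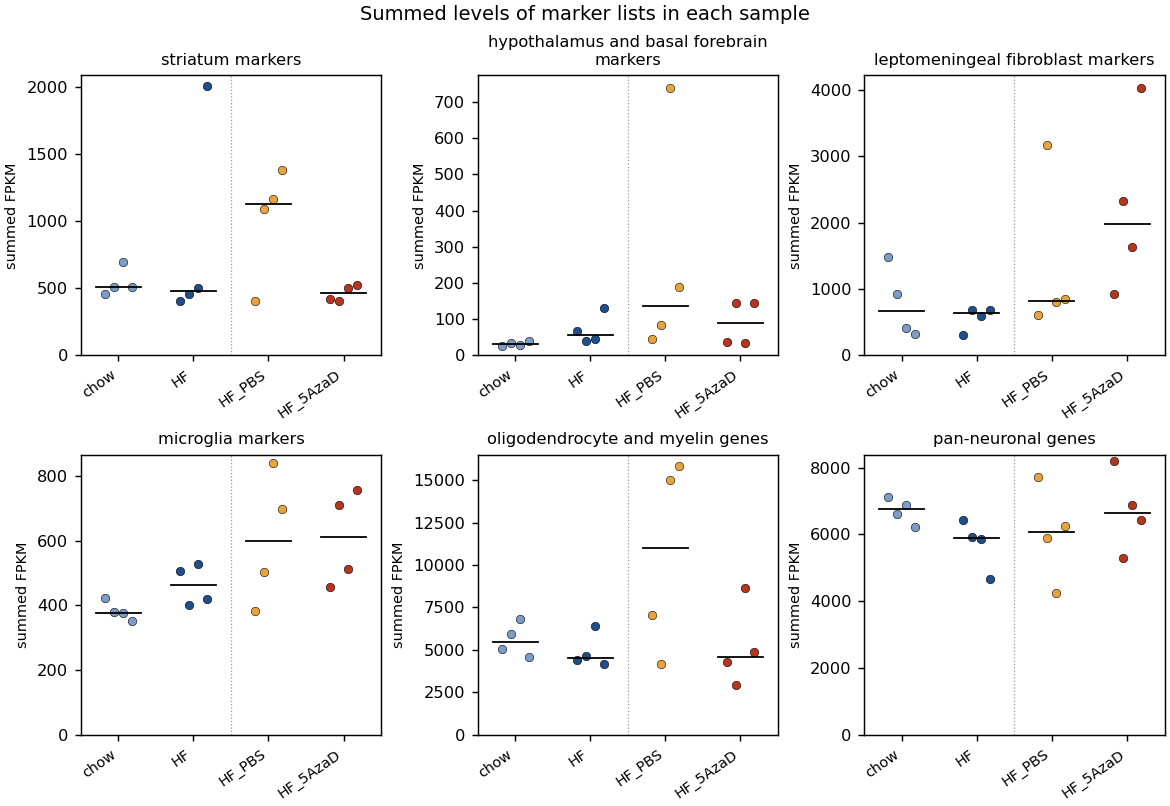
Summed FPKM of 6 marker lists in each sample (y axis, from 0), by group, with medians as lines. Striatal markers are high in HF 8 and 3 HF_PBS samples, leptomeningeal markers in HF_PBS 2 and 3 of 4 HF_5AzaD samples, and pan-neuronal genes overlap across the 4 groups.

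Oligodendrocyte and myelin genes had 1 of 28 higher, Aspa, an enzyme of acetylaspartate breakdown, at 7.23 to 10.3 FPKM in the uninjected samples (median 9.21) and 10.5 to 21.9 FPKM in the injected samples (median 14.2). The summed myelin level was 4166 to 6831 FPKM in uninjected and 2951 to 15854 FPKM in injected samples, where HF_PBS 3 and HF_PBS 4 were highest. Astrocyte markers had 5 of 20 higher and 1 lower, including the water channel Aqp4 at 0.67 and the lipid carrier Apoe at 0.59. Upper layer markers had 3 of 11 lower (27.3%, against 19.4% of all symbols) and 1 higher, with the transcription factors Cux2 and Rorb at -0.77 and -1.0. With the hypothalamus covariate 0 upper layer markers were lower, against 11.3% of all symbols. Against HF alone 1 was lower (9.09%, against 12.6%). Deep layer markers had 1 of 16 lower. Interneuron genes had 1 of 20 higher, endothelial markers 2 of 17 higher and 1 lower, mural cell markers 3 of 13 and 1, choroid plexus markers 4 of 9 and 1, and blood cell markers 3 of 4 higher. With the hypothalamus covariate 0 astrocyte, mural cell, choroid plexus and blood cell markers rose, against 12.3% of all symbols. Against HF alone, where 13.4% of all symbols rose, 1, 1, 0 and 1 rose in the same order. Against chow alone, where 15% rose, 4, 0, 2 and 3 rose. Striatum markers, high in libraries of both kinds, had 0 of 18 higher and 2 lower, and thalamus markers had 2 of 12 higher.

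The 4 pairs of an injected with an uninjected group can be set side by side for the leading genes, though pairs that share a group are not independent. Rps24 was higher than HF by 1.42 in HF_PBS and by 1.37 in HF_5AzaD, and higher than chow by 1.41 and 1.36. Unc13a differed from HF by -1.32 in HF_PBS and -0.84 in HF_5AzaD, and from chow by -1.27 and -0.79. The median of the ribosomal protein genes was 0.55 and 0.47 against HF, and that of the glutamate receptor and scaffold genes -0.52 and -0.37, for HF_PBS and HF_5AzaD. Arc and Fos were at 0.78 and 0.97 against HF and at -0.54 and -0.43 against chow, and passed the test in neither. Of the 131 named genes called in the full contrast, 112 were also called against HF alone and 121 against chow alone.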

How the data were processed

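Poly-A selected RNA from frontal cortex was sequenced on an Illumina HiSeq instrument, per the labels' protocols. The authors deposited 1 table of FPKM values with a status for each locus and sample. TopHat, TopHat2, Bowtie, Bowtie2, Cufflinks and Cuffdiff and the build rn5 are named in the submitters' processing notes, and versions, strand setting and annotation are not given in the sources used here. Titles starting with HFD carry a treatment field of high fat diet with PBS, and the treatment field was followed, although the series text uses that abbreviation for the diet alone.

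Differences were fitted on log2(FPKM + 0.5) with limma 3.58.1 in R 4.3.3, with 4 group means, 12 residual degrees of freedom, a mean-dependent prior and Benjamini-Hochberg adjustment over 14824 loci. Loci with a mean under 1 FPKM or a status other than OK (161 loci) were left out. Each gene symbol was represented by its locus of highest mean. The fit was tested on simulated data. Relative depth was estimated from the ratio of FPKM values at loci above 0 in 2 to 10 samples.

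Named genes were the 12 largest differences and the 6 most abundant genes in each direction among called, non-overlapping loci, up to 4 called members of lowest p in each direction of a list, and 12 set genes; 8 genes that the rule names are not reported here. The comparison, the 55 lists and the set genes were chosen with earlier results of these data known. The 46 lists described, the number of members named for each, the depth limits, the promoter measures and 4 alternatives (hypothalamus covariate, leptomeningeal covariate, same sum without loci above 10000 FPKM, and leaving out HF 8 with HF_PBS 2, 3 and 4) were chosen after values were seen. Genes encoded by the mitochondrial genome were not analysed here. RefSeq promoter sequences are of build GRCr8, and no coordinates were moved between builds.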

Additional observations from a re-analysis of the deposited data

Results flagged for a closer look

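In 43 group values of the named genes and 9 list scores, 1 of the 4 samples of a group stood apart, its gap to the nearest of the others, as a share of the group's range, being above Dixon's critical value. The screen covered 136 named genes and the list scores, each in 4 groups. About 1 group in 20 stands apart by chance, so many of these values are to be expected. The library HF 6 had 11 of the 52 values, more than any other library.

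HF 6 lay above the other 3 HF samples for Elavl3 (60.1 FPKM), Kcnh7 (21.5 FPKM), LOC317456 (28.7 FPKM), Mgat5 (23.2 FPKM), Tsc1 (14.9 FPKM), Unc13a (76.9 FPKM), Zbtb38 (15.7 FPKM) and the score of the voltage-gated sodium, calcium and potassium channels list (0.48). Values below those of the rest of its group were found in chow 4 for Mrpl32 (13.4 FPKM), Ndufa11 (92.2 FPKM), Ndufa6 (157 FPKM), Pfdn5 (92.9 FPKM), the score of the LSm and Sm spliceosome core proteins list (-0.22) and the score of the mitochondrial ribosomal proteins list (-0.20). Compared with its group, HF_PBS 2 was high for Nr2c2 (6.61 FPKM), Ptgds (2594 FPKM), Slc6a13 (9.15 FPKM) and the score of the leptomeningeal fibroblast markers list (1.60). HF 5 lay above the other 3 HF samples for Bdnf (9.90 FPKM), Csnk1d (49.6 FPKM) and Ganab (0.513 FPKM). Values below those of the rest of its group were found in HF 6 for Dynlrb1 (234 FPKM), Lsm3 (11.7 FPKM) and Ndufa11 (84.5 FPKM). HF 7 exceeded the rest of HF for Apoe (2863 FPKM), Rps29 (25.8 FPKM) and the score of the mural cell markers list (0.21). HF 8 lay above the other 3 HF samples for Fos (30.2 FPKM), Oxt (1.99 FPKM) and the score of the striatum markers list (2.24). Values above those of the rest of its group were found in HF_5AzaD 7 for Cebpd (8.44 FPKM), Rps24 (479.7 FPKM) and Rps29 (190.5 FPKM). Chow 4 exceeded the rest of chow for Egr3 (72.0 FPKM), LOC317456 (22.5 FPKM) and the score of the cadherins and protocadherins list (0.23). HF_5AzaD 3 lay above the other 3 HF_5AzaD samples for Exoc8 (2.06 FPKM) and Tsc22d3 (55.7 FPKM). Values above those of the rest of its group were found in HF_5AzaD 5 for Eif4e2 (15.3 FPKM) and Tef (79.8 FPKM). HF_PBS 3 exceeded the rest of HF_PBS for Grin2d (10.8 FPKM) and Oxt (403 FPKM). HF_PBS 4 lay below the other 3 HF_PBS samples for Csnk1d (31.7 FPKM) and Mlst8 (5.21 FPKM). Values below those of the rest of its group were found in HF 8 for Psmb6 (3.52 FPKM). Compared with its group, HF_5AzaD 6 was high for the score of the semaphorins, plexins and neuropilins list (0.00042). HF_PBS 1 lay above the other 3 HF_PBS samples for Exoc8 (2.39 FPKM). Values below those of the rest of its group were found in HF_PBS 1 for the score of the striatum markers list (-0.70). Compared with its group, HF_PBS 2 was low for Aspa (12.7 FPKM). HF_PBS 4 lay above the other 3 HF_PBS samples for Dynlrb1 (476 FPKM). Values below those of the rest of its group were found in chow 1 for Tef (69.2 FPKM). Compared with its group, chow 3 was high for Tmem132d (23.4 FPKM).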

How the results depend on the processing

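The 2926 higher and 3115 lower loci kept counts within 1.5 times under both other pseudocounts, both other filters, every status, median ratio and upper quartile scaling, both other limma settings, the replicate block, 2 group means, and the depth, striatum, myelin and leptomeningeal covariates. Of the 6041 loci called in the full contrast, 0 were called in the opposite direction under any of these or the settings below, all of which reuse the same samples. Over 40 settings the 131 called genes named in the text gave 5220 values, of which 4968 remained called. The cause of each shift below was not tested.

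With each sample left out in turn, higher loci ranged from 2318 to 3101 and lower loci from 2635 to 3248. The counts ranged from 1802 to 4423 against HF alone, from 1633 to 4036 for HF_PBS against HF, from 2013 to 4629 for HF_PBS against chow, from 395 to 2344 for HF_5AzaD against HF and from 399 to 2906 for HF_5AzaD against chow. The lowest came without HF 6 for the 3 counts against HF, without HF_PBS 4 for HF_PBS against chow and without HF_5AzaD 7 for HF_5AzaD against chow.

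Several settings moved the counts by over 1.5 times. Without HF 8 and HF_PBS 3 and 4, 1687 loci were higher, 1940 were called against HF alone, 7 for HF_PBS against HF and 3 for HF_PBS against chow. Leaving out HF_PBS 2 as well gave 1062 higher and 1444 lower loci, 1127 against HF alone, and 0 and 2 for HF_PBS against HF and chow. HF as the only uninjected group gave 1904 higher loci, and HF_5AzaD as the only injected group gave 1716 higher and 1888 lower. The hypothalamus covariate gave 1720 higher and 1940 lower loci, with 2137 for HF_PBS against HF, 1 for HF_PBS against chow and 1056 for HF_5AzaD against chow. The leptomeningeal covariate gave 2604 against HF alone, and 234 and 610 for HF_5AzaD against HF and chow. The depth covariate gave 133 for HF_PBS against chow, and 869 and 0 for HF_5AzaD against HF and chow. The myelin covariate gave 1210 and 1866 for HF_PBS against HF and chow, and the striatum covariate 2052 for HF_PBS against chow. Sample weights gave 2334 for HF_PBS against HF, and 1329 and 3760 for HF_5AzaD against HF and chow.

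The replicate block, with the numbers of the titles as a factor, called 5309 loci in the full contrast. It called 1 against HF alone, 0 for HF_PBS against HF, 54 for HF_5AzaD against HF and 0 for HF_5AzaD against chow. HF shares numbers only with HF_5AzaD, and HF_5AzaD shares a number with chow and HF_PBS only in HF_5AzaD 3. Under this block HF against HF_PBS, and HF_5AzaD against chow, are therefore tied by that library alone. The design limits their counts, which cannot show whether a block exists. Deviations of same-numbered samples correlated at -0.16 to 0.06, and in 0 of 7 pairs was the same number the best match. Only chow with HF_PBS and HF with HF_5AzaD were compared. So few pairs cannot decide whether the numbers mark a shared block.

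With all tested loci rescaled to the same sum, 104 loci were lower, and 311 were called against HF alone, 293 and 410 for HF_PBS against HF and chow, and 128 and 149 for HF_5AzaD against HF and chow. Against a median of 0.74 under that scaling, these genes had positive log2 differences in place of negative ones: Eef2 0.55, Ppp1r9b 0.30, Syt11 0.32, Atp6v0e2 0.35, Rps21 0.52, Sdha 0.41, Ndufs1 0.45, Psmd2 0.46, Eif4enif1 0.066, Eif4e2 0.38, Plxna2 0.13, Kif3b 0.17, Ehmt1 0.084, Nsd1 0.029, Mbd1 0.39, Zbtb38 0.30, Nr3c1 0.49, Cry2 0.26, Csnk1d 0.47, Tef 0.34, Tsc1 0.25, Pdpk1 0.19, Mlst8 0.068, Elavl3 0.56, Cux2 0.0034, Fkbp5 0.46, Dnmt1 0.51 and Dnmt3a 0.47.

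Among genes that did not pass the test, 3 changed sign elsewhere. Arc, Tsc22d3 and Fos were at -0.54, -0.19 and -0.43 with chow as the only uninjected group. Arc was at -0.015 with HF_5AzaD as the only injected group, at -0.18 with the depth covariate, at -0.00094 with the myelin covariate, and at -0.04 and -0.11 without HF 6 and without HF_5AzaD 6. Fos was at -0.10 with the depth covariate and -0.20 with the hypothalamus covariate.

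The description of differences by locus size was not run, because neither locus spans nor transcript lengths of the build used were at hand. Depth limits the values near 0: relative depth is approximate, total counts are unknown, and 138 called loci have a library listed at 0.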

Other observations

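Lists outside the accounts above gave these values. Collagens and laminins had 2 of 19 members higher and 2 lower, with a median log2 difference of 0.30. Oligodendrocyte precursor markers had 3 of 9 higher and 2 lower, with a median of 0.01. Markers of the olfactory bulb and hippocampus had 1 of 11 higher and 0 lower, with a median of 0.17. Nuclear long noncoding RNAs had 1 of 4 higher, with a median of 0.50, and replication-dependent histone genes 1 of 3 higher, with a median of 0.23.

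The share of loci called changed with level. In the lowest quintile of mean FPKM, 14.5% rose and 15.1% fell, and in the highest quintile 25.8% rose and 19.8% fell. In the middle quintile 19.6% rose and 24.7% fell.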
